A study of Mus musculus with 46 samples.

Results

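Mammary tumors of 5 C3TAg mice were set against 5 normal mammary glands of pregnant FVB mice, 10 of the 46 arrays of the series. Each array measured 334 mouse miRNAs in total RNA of 1 sample. The C3TAg arrays carried little signal above their background, so each miRNA is given with the number of arrays on which it exceeded 3 times the floor, the floor being the 5th percentile of all spots of that array. A miRNA called at the floor did not exceed 3 times it and may have kept some signal under that limit. The other 36 arrays came from tumors of 7 other models (p53-/-, Brca1-/-p53+/-, MMTV-C-Myc, MMTV-H2N, MMTV-Hras, MMTV-Wnt and MMTV-PymT). They serve here for a comparison of C3TAg with other tumors. They also enter the fit, where all groups share 1 estimate of the spread of a miRNA, and so affect the SE and p-values against normal gland. The p53-/- tumors, grown as transplants, were of the Balb/C strain and the Brca1-/-p53+/- tumors of 129B6/FVB, and the other 5 models and the normal glands were of FVB. The C3TAg mice carry the T and t antigens of simian virus 40 under the C3(1) promoter, a flanking region of a rat prostate gene that is active in mammary ductal cells and weakly elsewhere. The tumors were primary and came from individual mice of the FVB strain. The normal glands were taken from FVB females late in pregnancy, a stage rich in secretory epithelium, and their titles share a code (M1) that the labels do not explain, so p-values measure the spread between these samples, which may be partly technical. Age was not given in the labels. The tumors and the late pregnant glands differ in transgene, malignancy, pregnancy state and cell makeup all at once, and these cannot be told apart here.

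The large T antigen of simian virus 40 binds and inactivates the tumor suppressors p53 and Rb, which frees E2F transcription factors and lets cells enter S phase without the p53 checkpoint. miRNAs are short RNAs that guide Argonaute proteins to messenger RNAs, mainly through the seed, bases 2 to 8 from the 5′ end, and members of a family share a seed. In the mammary gland the miR-200 family and miR-205 are known as epithelial miRNAs, miR-148a and miR-146b as miRNAs of the secretory gland, and the let-7 family as repressors of Ras and Hmga2. The transgene itself is not on a miRNA array, so the labels of tumor and gland could not be checked. The epithelial miRNAs miR-205 and miR-200a were found in both groups, so their presence alone cannot tell the groups apart. miR-205 was above the floor on 5 of 5 C3TAg and 5 of 5 normal arrays, and miR-200a on 4 of 5 C3TAg and 5 of 5 normal arrays. On the 36 arrays of the other models they were above it on 36 and 35. The other miR-200 members, miR-200b, miR-141, miR-200c and miR-429, were above it on 0, 0, 1 and 3 C3TAg arrays. Each was above it on 5 normal arrays.

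The share of the 334 miRNAs above the floor was 20.7, 14.1, 22.2, 9.28 and 25.4 percent on C3TAg arrays 1 to 5, against 59.6, 67.1, 68.6, 62.9 and 70.7 percent on normal arrays 1 to 5. That is a mean of 61.2 ± 21.8 miRNAs in C3TAg and 219.6 ± 14.9 in normal gland (SD, n = 5 each), given as a description, since the dimness of the C3TAg arrays was known when this count was chosen. The groups did not overlap. The floor itself lay between 92.7 and 241 on C3TAg arrays and between 21.3 and 34.6 on normal arrays, and the median signal of an array was 1.06 to 1.45 times its floor in C3TAg and 7.89 to 17.1 times its floor in normal gland. C3TAg replicate 3 stood apart: its log2 signals correlated with those of the other 4 C3TAg arrays at Pearson's r of 0.63 to 0.67, against 0.85 to 0.91 among those 4 and 0.94 to 0.99 among the normal arrays, and its floor of 241 was the highest. Without it the count above the floor averaged 58 ± 23.8 in C3TAg (n = 4). Of the other models only p53-/- had similar counts, 91 to 111 per array, and the remaining 6 models ranged from 168 to 304.

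**Figure D1:**
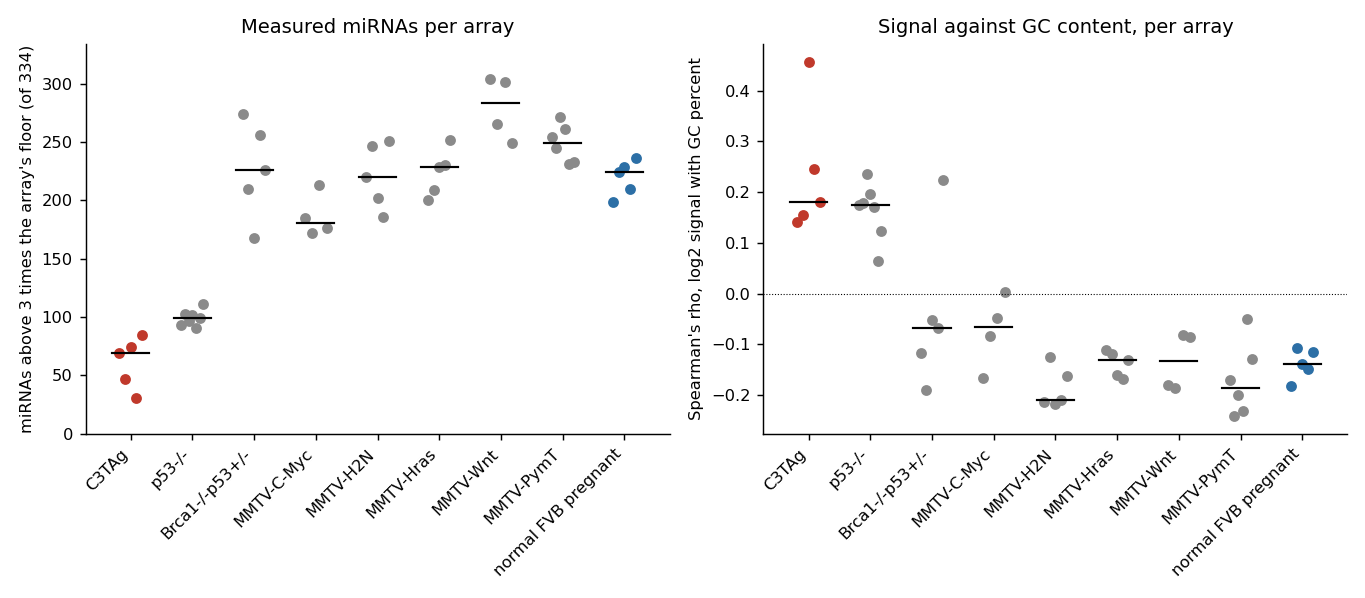
Left, number of miRNAs above 3 times the floor on each array (points) by group, with the group median (line); the C3TAg arrays, at 31 to 85, lie below every other array. Right, Spearman's rho over 192 miRNAs between the log2 signal on an array and the percent of G and C in the mature sequence; it is above 0 on all 5 C3TAg and all 7 p53-/- arrays and below 0 on all 5 normal arrays.

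The mature sequences of the miRNAs on which the results turn are given from RefSeq (GRCm38.p6), with the seed in capitals; 192 of the 334 array miRNAs could be matched to one, and the array was designed from an older release, so its probes may differ at the ends. The 9 let-7 members, which share a seed, are shown because their signals in C3TAg tumors were far apart.
let-7a: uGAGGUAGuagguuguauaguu
let-7b: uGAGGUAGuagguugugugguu
let-7c: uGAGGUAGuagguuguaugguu
let-7d: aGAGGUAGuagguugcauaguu
let-7e: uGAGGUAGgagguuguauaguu
let-7f: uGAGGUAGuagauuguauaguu
let-7g: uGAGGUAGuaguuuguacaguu
let-7i: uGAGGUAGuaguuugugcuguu
miR-98: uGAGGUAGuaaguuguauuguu
With positions counted from the 5′ end, let-7f differs from let-7a by G12A, let-7c by A19G and let-7e by U9G, while let-7b differs by A17G and A19G and let-7g by G12U and U18C. The gene of let-7a at chr13:48538239-48538260 (minus strand) lies beside those of let-7d, at chr13:48536078-48536099 (minus strand), and let-7f, at chr13:48537889-48537910 (minus strand), and let-7f has a second copy at chrX:151912353-151912374 (plus strand), within the span of Huwe1 next to miR-98 at chrX:151913229-151913250 (plus strand). let-7b, at chr15:85707325-85707346 (plus strand), and 1 copy of let-7c, at chr15:85706616-85706637 (plus strand), lie within the long non-coding RNA gene Lncppara, and let-7g, at chr9:106178846-106178867 (plus strand), within Wdr82.

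The second set holds miRNAs that fell most steeply or at high signal in C3TAg tumors.
miR-451: aAACCGUUaccauuacugaguu
miR-148a: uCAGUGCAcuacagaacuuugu
miR-146b: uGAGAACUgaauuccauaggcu
miR-26a: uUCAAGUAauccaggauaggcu
miR-26b: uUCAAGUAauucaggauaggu
miR-29b: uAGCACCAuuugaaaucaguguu
miR-30c: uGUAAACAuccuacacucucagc
miR-200a: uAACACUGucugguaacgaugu
miR-21: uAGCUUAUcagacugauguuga
miR-107: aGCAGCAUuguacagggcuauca
miR-451 lies at chr11:78073186-78073207 (plus strand), miR-148a at chr6:51269829-51269850 (minus strand) and miR-146b at chr19:46342790-46342811 (plus strand). miR-26a comes from 2 genes, at chr10:126995543-126995564 (plus strand) and chr9:119031811-119031832 (plus strand), within the spans of Ctdsp2 and Ctdspl, and miR-26b, which differs from miR-26a by C11U and C21U in its shared length, lies at chr1:74394324-74394344 (plus strand) within Ctdsp1. miR-29b comes from chr1:195037091-195037113 (plus strand) and chr6:31063025-31063047 (minus strand) and miR-30c from chr1:23291714-23291736 (plus strand) and chr4:120769584-120769606 (minus strand). miR-200a lies at chr4:156054911-156054932 (minus strand), miR-21 at chr11:86584120-86584141 (minus strand) within Vmp1, and miR-107 at chr19:34820700-34820722 (minus strand) within Pank1.

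The third set holds the miRNAs that were higher in C3TAg tumors and above the floor there, with miR-412, which the study associated with C3TAg tumors.
miR-346: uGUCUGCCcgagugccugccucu
miR-683: cCUGCUGUaagcuguguccuc
miR-222: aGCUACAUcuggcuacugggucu
miR-92: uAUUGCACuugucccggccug
miR-412: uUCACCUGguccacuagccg
miR-346 lies at chr14:34894624-34894646 (plus strand) within Grid1, and miR-683 comes from chr13:50544644-50544664 (minus strand) and chr13:50600990-50601010 (minus strand). miR-222 lies at chrX:19146901-19146923 (minus strand). The copies of miR-92 lie at chr14:115044476-115044496 (plus strand) and chrX:52741854-52741874 (minus strand), the copy on chromosome 14 within Mir17hg, the host of the miR-17-92 cluster. miR-412 lies at chr12:109743340-109743359 (plus strand) within Mirg, in the imprinted Dlk1-Dio3 region.

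Counted by the floor of each array, most miRNAs that were bright in normal gland were dim or at the floor in C3TAg tumors, and hardly any showed the opposite. The floor was 92.7 to 241 on C3TAg arrays and 21.3 to 34.6 on normal arrays. These counts therefore lean towards drop-outs in C3TAg and against gains by construction, and are given as a description. Of the 191 miRNAs above the floor on all 5 normal arrays, 97 were above it on no C3TAg array, and 50 were above it on 3 or more. Of the 52 miRNAs above the floor on 3 or more C3TAg arrays, those 50 were above it on all 5 normal arrays, and only miR-346 and miR-683 were not. miRNAs above the floor on no array of either group numbered 73. The 97 that dropped out in C3TAg had a median signal of 981 in normal gland (geometric means over 5 arrays, 132 to 126762), against 8214 (562 to 106678) for the 50 that were kept. The brightest miRNA of normal gland, miR-451, was among those that dropped out.

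**Figure D2:**
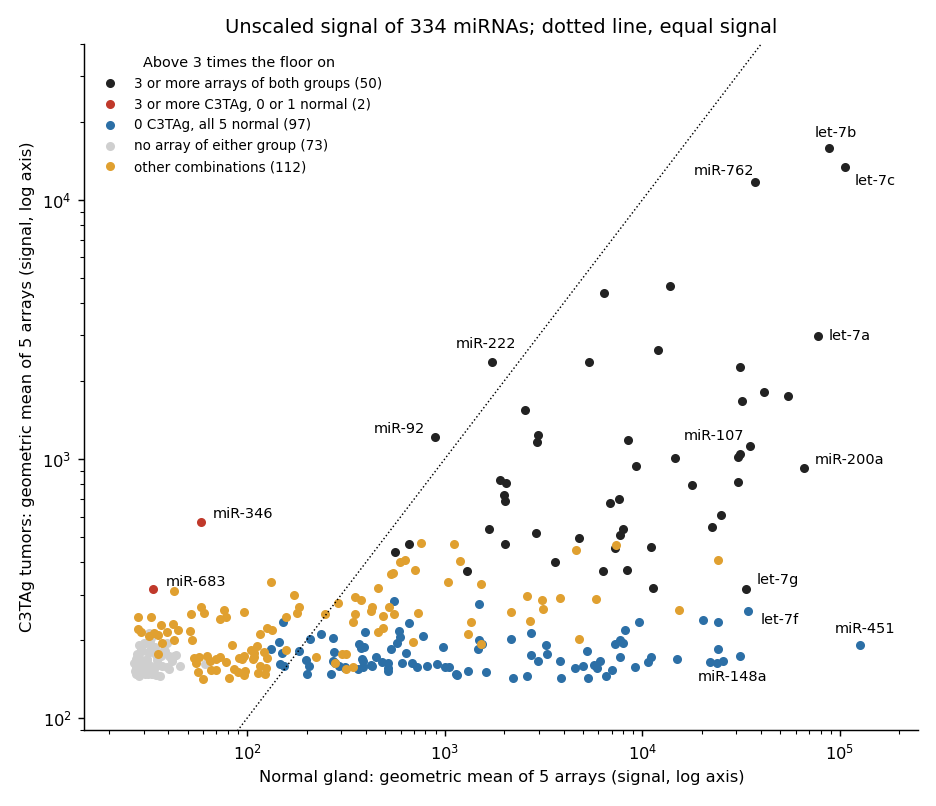
Geometric mean signal of each of the 334 miRNAs over 5 C3TAg arrays (y) against 5 normal arrays (x), both unscaled and on log axes, coloured by the arrays on which the miRNA exceeded 3 times the floor; the dotted line marks equal signal. The 97 blue points lie along the C3TAg floor at any normal signal up to that of miR-451, and miR-346 and miR-683 are the 2 points above the floor in C3TAg but not in normal gland.

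Signals were scaled by the array median, log2-transformed and compared with limma over all 46 arrays (Benjamini-Hochberg adjusted p over 334 miRNAs, threshold 0.05). In C3TAg tumors 100 miRNAs were lower than in normal gland (29.9 percent of all tested), 43.7 percent were called higher, and 88 did not pass. Every one of the 100 lower miRNAs was above the floor on 3 or more normal arrays. Of the miRNAs called higher, 4 were above the floor on 3 or more C3TAg arrays (miR-346, miR-683, miR-222 and miR-92), 27 on 1 or 2 and the rest on none, and 73 were above it on no array of either group. Those 73 had a median log2 fold of 3.34 (2.34 to 3.69), and 0.55 with floor subtraction alone. The array median stood close to the floor in C3TAg and far above it in normal gland, so a miRNA at the floor in both groups has a positive fold by construction, and such calls are not read here as higher levels. The median log2 fold of all miRNAs was 0.36 with the array median, 2.52 with the 75th percentile, 3.67 with scaling to the brightest miRNAs, 0.48 with quantile normalization and -0.57 with no scaling. With floor subtraction it was -1.32 alone and 2.73 with the 90th percentile, and these make up the 7 settings referred to here.

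Since the direction of a moderate fold turned with the scaling, calls were counted that held under all 7 scaling and background settings: 32 miRNAs were lower (9.58 percent of all tested) and 19 higher (5.69 percent). The log2 folds of the 32 ran from -8.44 to -3.96 with the array median. All 32 were above the floor on 5 of 5 normal arrays, 23 of them on no C3TAg array and 7 on 3 or more C3TAg arrays. Those 7 were let-7g, miR-200a, miR-125b, miR-23b, miR-103, miR-16 and miR-107. Of the 19 higher miRNAs, 13 were above the floor on no C3TAg array, and only miR-346 and miR-683 were above it on 3 or more. All 51 calls held without C3TAg replicate 3.

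**Figure D3:**
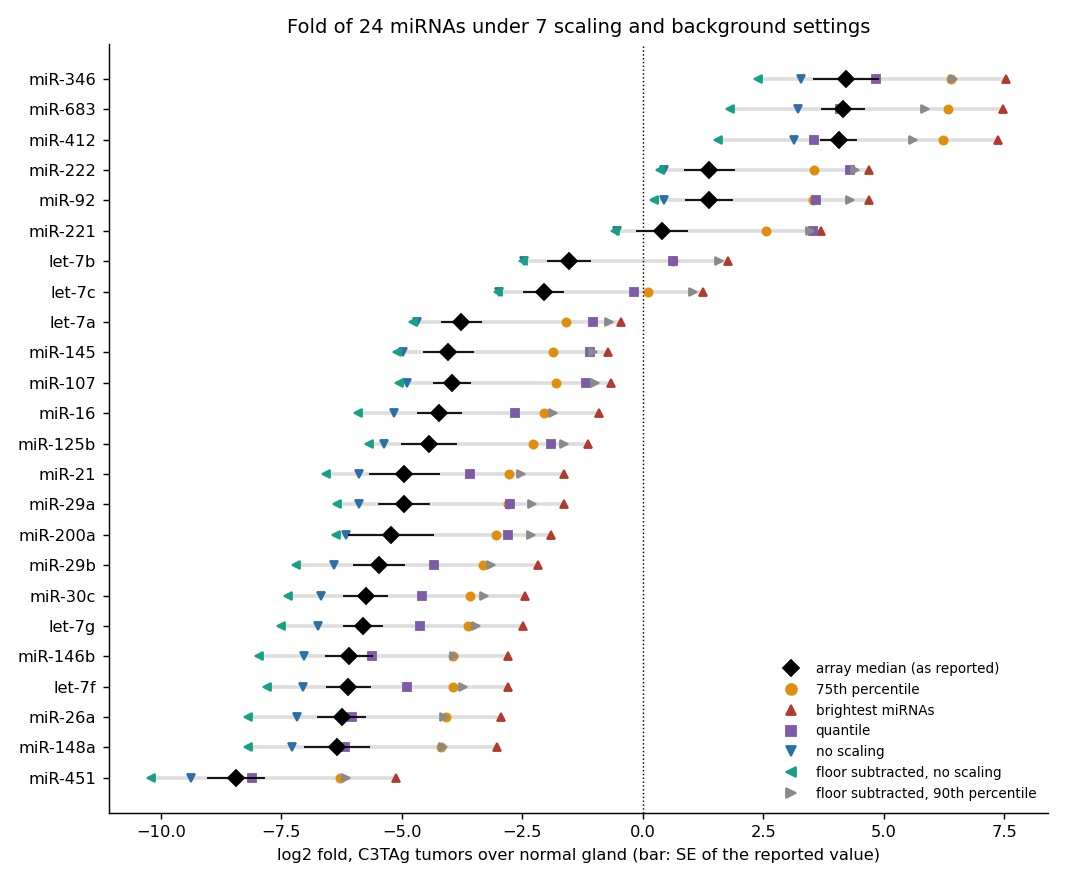
log2 fold, C3TAg tumors over normal gland, of 24 miRNAs (rows) under 7 scaling and background settings (symbols); the black diamond is the value with the array median and its bar the SE. Every setting keeps miR-451 to miR-107 (log2 fold -8.44 to -3.96 with the array median), miR-145 and let-7a below 0 and miR-346, miR-683, miR-412, miR-222 and miR-92 above 0, while let-7b, let-7c and miR-221 cross 0.

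Where a miRNA was above the floor on none of the 5 C3TAg arrays, only a bound on its fold can be given. It sets the normal mean against a C3TAg mean and is written "at least". That C3TAg mean takes, per array, the lowest scaled signal among miRNAs above the floor or the miRNA's own signal, whichever was higher. The bound holds for scaling by the array median only and is no minimum under the other settings. With scaling to the brightest miRNAs the log2 fold of let-7f was -2.80, and those of miR-182 and miR-203 turned to 0.09 and 0.07. The steepest fall was that of miR-451, which is matured by Ago2 in place of Dicer and marks red blood cells. Its signal was 154, 205, 335, 177 and 136.8 on C3TAg arrays 1 to 5, against 100011, 101087, 174089, 140425 and 132428 on normal arrays 1 to 5. It was at least 169-fold lower in C3TAg tumors (log2 fold -8.44, SE 0.60, adjusted p = 3.6e-16). Of the other red cell miRNAs, miR-486 averaged 297 in C3TAg and 2625 in normal gland (log2 fold -2.21, SE 0.45, adjusted p = 1.9e-05), and miR-144, which is made from the same transcript as miR-451, averaged 154.7 in C3TAg and 364 in normal gland and did not pass (log2 fold -0.30, SE 0.82, adjusted p = 0.75). Since miR-144 was above the floor on no C3TAg array and dim in normal gland, a fall of it could hardly be measured, and no bound can be given. The share of blood in the samples was not measured otherwise, and its part in the miR-451 fold was not tested. In these bulk samples, fewer cells of a type and less RNA per cell cannot be told apart.

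The 2 miRNAs of the secretory gland fell together. miR-148a, which is abundant in mammary epithelium and milk, had signals of 159, 128.5, 389.7, 143.2 and 111 in C3TAg, against 18674, 15491, 22776, 43604 and 39535 in normal gland. It was at least 34.3-fold lower (log2 fold -6.35, SE 0.69, adjusted p = 5.2e-11). miR-146b had 219.02, 134, 286, 136 and 192 in C3TAg, against 15420.1, 14466, 20875, 39803 and 45614 in normal gland, and was at least 32.4-fold lower (log2 fold -6.10, SE 0.50, adjusted p = 2.9e-14). No C3TAg signal came near a normal one for either miRNA, and 31.7 percent of all miRNAs were likewise lower in C3TAg without overlap. Both folds stayed well below 0 with scaling to the brightest miRNAs (-3.03 for miR-148a and -2.79 for miR-146b). miR-805, a name of the array's design with no role known here, is placed by the study on the mitochondrial genome (MT). It fell by a similar amount, with 249.9, 127.7, 300.4, 136 and 119 in C3TAg against 27267, 56665, 69880.0, 13861 and 19905 in normal gland (at least 41.7-fold lower, log2 fold -6.56, SE 0.44, adjusted p = 6.8e-17).

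All 9 let-7 miRNAs were lower in C3TAg tumors (median log2 fold -3.58, range -6.12 to -1.54), against 29.9 percent of all miRNAs. They split widely in signal although they share a seed and much of their length. let-7b had 22947, 13635, 9975, 12859 and 24984 in C3TAg, against 64395, 63347, 114334, 87444 and 128693 in normal gland (log2 fold -1.54, SE 0.46, adjusted p = 0.0024). let-7c had 17612, 11046, 10489, 12002 and 17711 in C3TAg, against 81383, 73983, 133248, 107292 and 160502 in normal gland (log2 fold -2.06, SE 0.43, adjusted p = 2.9e-05). These were the 2 brightest miRNAs of the C3TAg arrays by scaled mean, and their folds turned above 0 with scaling to the brightest miRNAs (1.77 for let-7b and 1.25 for let-7c). let-7a, 1 base from let-7c, had 4506, 2354, 1421, 2739.6 and 5713 in C3TAg, against 52784, 60339.8, 101553, 75852 and 113276 in normal gland (log2 fold -3.77, SE 0.43, adjusted p = 1.4e-10). let-7f, 1 base from let-7a, had 288, 220.4, 282, 344 and 192 in C3TAg, below 3 times the floor on all 5 arrays, against 23744, 26738, 42022, 35849 and 49786 in normal gland. It was at least 45.8-fold lower (log2 fold -6.12, SE 0.47, adjusted p = 3.1e-15). The signals of none of these 4 overlapped between the groups, and those of 31.7 percent of all miRNAs were likewise lower in C3TAg without overlap. let-7g had 372, 355, 256, 189 and 487 in C3TAg, above the floor on 3 of 5 arrays, against 26204, 25299, 43734, 30546 and 48369.9 in normal gland (log2 fold -5.80, SE 0.42, adjusted p = 4.2e-16). miR-98 was at least 10.9-fold lower (log2 fold -4.29, SE 0.49, adjusted p = 1.1e-10), and let-7d, let-7i and let-7e had log2 folds of -3.58, -3.33 and -2.93. For let-7f, let-7g and miR-98 the call held under all 7 settings, and for let-7a, let-7d and let-7i the sign did. Without C3TAg replicate 3 the median of the family was -3.14.

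**Figure D4:**
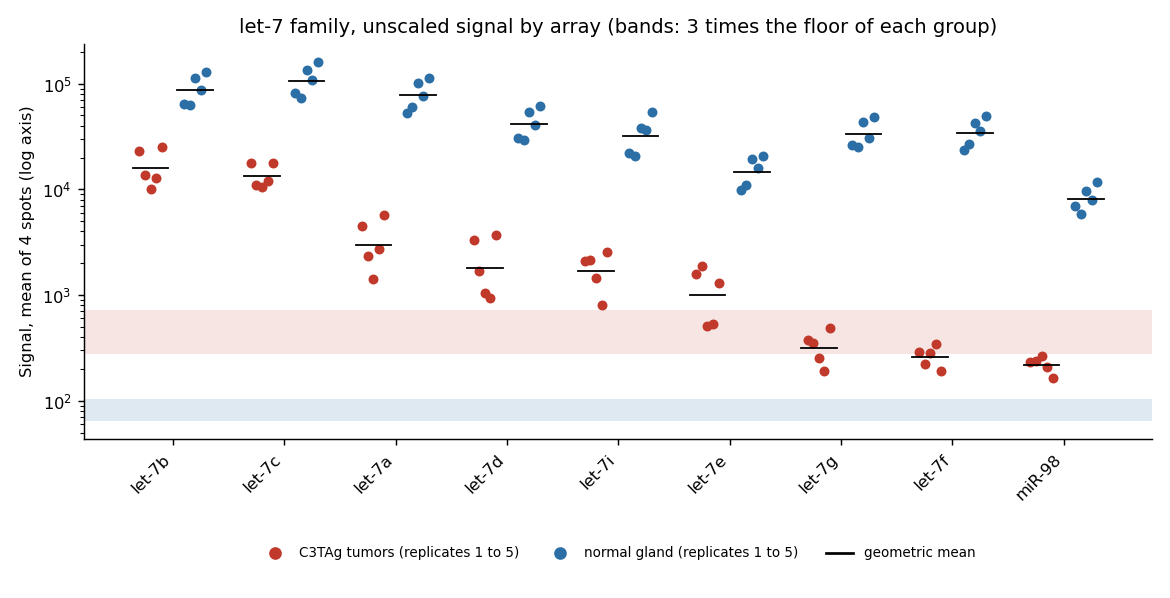
Signal of each let-7 family miRNA on each array (points, log axis), C3TAg tumors left of normal glands, with the geometric mean (line); the red and blue bands span 3 times the floor over the C3TAg and the normal arrays. In C3TAg let-7b and let-7c stay at 9975 or more on every array, whereas let-7g, let-7f and miR-98 lie near or under the band.

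The same split of related miRNAs was seen in other tumors with dim arrays. let-7f averaged 259.6 in C3TAg tumors and 842 in p53-/- tumors, and between 11799 (Brca1-/-p53+/-) and 103067 (MMTV-Wnt) in the other 6 models, whose arrays had more miRNAs above the floor. let-7b averaged 15857 in C3TAg tumors and 28653 in p53-/- tumors. The p53-/- mice were of another strain (Balb/C), and no test between these 2 models was run.

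The miR-26, miR-29 and miR-30 miRNAs, which repress among others Ezh2 (miR-26) and collagens and DNA methyltransferases (miR-29), were at or near the C3TAg floor. miR-26a had 136, 118, 294.4, 161 and 156 in C3TAg, against 17204, 19425, 28460.2, 24337 and 33484 in normal gland, and was at least 31.8-fold lower (log2 fold -6.25, SE 0.52, adjusted p = 2.9e-14). miR-26b was at least 19.9-fold lower (log2 fold -5.53, SE 0.57, adjusted p = 1.2e-11). The signals of both were lower in C3TAg without overlap, as were those of 31.7 percent of all miRNAs. Of the miR-29 family, 3 of 3 fell, against 29.9 percent of all miRNAs. miR-29b had 209, 275, 349, 162 and 237 in C3TAg, against 19569, 22694, 33162, 13852 and 16901 in normal gland, and was at least 27.1-fold lower (log2 fold -5.48, SE 0.54, adjusted p = 4.8e-12). miR-29a, above the floor on 1 C3TAg array, had a log2 fold of -4.96, and miR-29c, the dimmest of them in normal gland and above the floor on no C3TAg array, was at least 2.96-fold lower (log2 fold -3.03). Of the miR-30 family, 4 of 5 fell, with at least 32.2-fold for miR-30c (log2 fold -5.75, SE 0.46, adjusted p = 1.5e-14), 14.2-fold for miR-30b, 8.73-fold for miR-30d and 7.59-fold for miR-30a-5p. No miR-30 member was above the floor on any C3TAg array, and the median log2 fold was -4.56, or -3.13 with these members at their bounds. The median with bounds was -4.65 for the miR-26 pair and -4.76 for the miR-29 family.

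The epithelial miR-200 family, which holds down the mesenchymal factors Zeb1 and Zeb2, was lower in 5 of 5 members (median log2 fold -3.41), against 29.9 percent of all miRNAs. Its median was -0.10 with scaling to the brightest miRNAs, and only miR-200a was called lower under all 7 settings. miR-200a had 1084, 1429, 589, 894 and 822 in C3TAg, above the floor on 4 arrays, against 48355, 40072, 71172, 94621 and 93268 in normal gland (log2 fold -5.22, SE 0.89, adjusted p = 1.1e-06). The fold was -4.82 without C3TAg replicate 3. miR-200b, made from the same cluster, exceeded 3 times the floor on no C3TAg array, with 236, 190, 296, 229 and 240, and was at least 12.8-fold lower (log2 fold -4.42, SE 0.81, adjusted p = 4.0e-06). miR-200c and miR-429 had log2 folds of -3.41 and -2.25. miR-141, above the floor on no C3TAg array, was at least 1.53-fold lower (log2 fold -2.04, adjusted p = 0.039), and its call was lost without C3TAg replicate 3 (adjusted p = 0.056). miR-429 and miR-141 turned sign with scaling to the brightest miRNAs. miR-205, which marks basal mammary epithelium, kept a signal on every C3TAg array: 918, 1558, 2147, 929 and 836 in C3TAg, against 4857, 5584, 6439, 12321 and 20639 in normal gland (log2 fold -1.91, SE 0.90, adjusted p = 0.054). Each C3TAg signal was below every normal signal, as for 31.7 percent of all miRNAs. The fold missed the threshold in the model over all arrays, and its sign turned under 4 of the 7 settings. In the 10 arrays alone the adjusted p was 7.4e-05, and without normal gland replicate 3 it was 0.048. miR-203, of stratified epithelium, fell to the floor in C3TAg (log2 fold -3.24, SE 0.57, adjusted p = 1.9e-06, at least 3.5-fold lower), and miR-31 had 691, 917, 348, 142.3 and 522 in C3TAg, against 394, 262, 405, 1450.0 and 923 in normal gland, with overlapping groups (log2 fold 0.58, SE 0.87, adjusted p = 0.58).

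For the miRNAs tied to p53, which the large T antigen inactivates, 1 of 7 fell, 2 were called higher at the floor of both groups (miR-192 and miR-215), and 4 did not pass. Among all miRNAs, 29.9 percent were lower and 43.7 percent were called higher. miR-34a, the best known p53 target among miRNAs, had 1473, 1007, 1752, 726 and 1561 in C3TAg, against 1181, 2825, 7674, 2994 and 2986 in normal gland (log2 fold -0.33, SE 0.52, adjusted p = 0.6). It was above the floor on all 10 arrays, its signals overlapped between the groups, and the sign of its fold turned with the scaling. miR-34b and miR-34c were above the floor on no C3TAg array and on all 5 normal arrays, with log2 folds of 0.05 and -0.09. miR-107, whose host gene Pank1 is a p53 target, was the member that fell: it had 1605, 772, 1059.8, 1308 and 651 in C3TAg, against 23980.1, 26818, 41892, 27161 and 35711 in normal gland (log2 fold -3.96, SE 0.39, adjusted p = 5.3e-12). miR-103, which differs from miR-107 by 1 base near the 3′ end (G22C, counted on miR-103), fell too (log2 fold -4.30, SE 0.42, adjusted p = 4.5e-12). Of the E2F targets of the miR-449 locus, miR-449 averaged 235 in C3TAg and 1367 in normal gland (log2 fold -1.61, SE 0.56, adjusted p = 0.0093), with 1 C3TAg array above the floor (replicate 5), and turned sign under 3 of the 7 settings. Its call was lost without normal gland replicate 3 (adjusted p = 0.052). miR-449b was at the floor in both groups.

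The miR-17-92 cluster and its paralogs, which E2F and Myc can activate, did not move together. Of 12 measured members, 6 fell, 2 were called higher and 4 did not pass, and 7 were above the floor on no C3TAg array. miR-92 rose: it had 1505, 343, 1531, 1274 and 2657 in C3TAg, against 637, 663, 545, 1176 and 2154 in normal gland (log2 fold 1.37, SE 0.50, adjusted p = 0.013). The unscaled signals overlapped, and the call was lost without C3TAg replicate 5 (adjusted p = 0.08) or without normal gland replicate 3 (0.059). It was also lost with no scaling (log2 fold 0.44, adjusted p = 0.45) and with floor subtraction alone (0.24, adjusted p = 0.68). miR-25, which shares its seed, had 3269, 1763, 1737, 1059 and 6976 in C3TAg, against 3247, 3962, 4460.3, 6947 and 11096 in normal gland (log2 fold -0.25, SE 0.51, adjusted p = 0.68). miR-93, above the floor on all 10 arrays, did not pass either (log2 fold -0.40, SE 0.50, adjusted p = 0.5). Other products of the same transcripts were at the C3TAg floor: miR-17-5p was at least 4.36-fold lower (log2 fold -3.17, SE 0.47, adjusted p = 6.0e-08) and miR-20a at least 4.38-fold (log2 fold -3.29, SE 0.45, adjusted p = 9.1e-09), although both turned above 0 with scaling to the brightest miRNAs (0.14 and 0.02). The other higher call, miR-363, was at the floor in both groups.

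miR-222 and miR-221, which repress the cell cycle inhibitor p27 and lie beside each other on the X chromosome, kept their signal in C3TAg tumors. miR-222 had 2158, 3981, 3767, 810.0 and 2806 in C3TAg, against 1519.5, 974, 1549, 2288 and 2998 in normal gland (log2 fold 1.38, SE 0.53, adjusted p = 0.018). Its unscaled signals overlapped. Its fold stayed above 0 under all 7 settings but ran up to 4.69 with scaling to the brightest miRNAs, and the call was lost with no scaling (log2 fold 0.45, adjusted p = 0.52) and with floor subtraction alone (0.36, adjusted p = 0.62). It was also lost without C3TAg replicate 2 (adjusted p = 0.072) or 5 (0.052). miR-221 had 4946, 6145, 5494, 1993 and 4856 in C3TAg, against 4573, 4087, 8038, 7208 and 9706 in normal gland (log2 fold 0.39, SE 0.54, adjusted p = 0.54), and its fold was -0.54 with no scaling and 3.70 with scaling to the brightest miRNAs.

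The 2 miRNAs above the floor in C3TAg but not in normal gland were dim. miR-346, which lies within the glutamate receptor gene Grid1, had 864, 339, 1674, 171 and 740.3 in C3TAg, above the floor on 4 arrays, against 41.1, 39.9, 41.7, 95 and 108 in normal gland, above the floor on 1 (log2 fold 4.22, SE 0.69, adjusted p = 4.9e-07). miR-683, for which no role is given here, had 541, 131, 833, 186 and 279 in C3TAg, above the floor on 3 arrays, against 23, 22, 75.4, 36.1 and 31 in normal gland, above it on none (log2 fold 4.16, SE 0.46, adjusted p = 7.1e-11). For both, each C3TAg signal was above every normal signal, as it was for 99 of all 334 miRNAs. Of those 99, only these 2 were above the floor on 3 or more C3TAg arrays. Without C3TAg replicate 3 the log2 folds were 4.07 and 4.04. When every value under a common floor, the highest of the 10 arrays, was raised to it, neither passed (log2 fold 0.56, adjusted p = 0.056 for miR-346 and 0.03, adjusted p = 0.12 for miR-683). miR-412 had 272, 168, 917, 150.2 and 145.8 in C3TAg, above the floor on replicate 3 alone, against 23.3, 22.4, 30.2, 34.2 and 32.7 in normal gland, above it on none (log2 fold 4.07, SE 0.38, adjusted p = 1.7e-12). With 4 of its 5 C3TAg signals not above the floor, this fold is not read as a higher level. Unscaled, miR-412 averaged 247 in C3TAg, against 233 in Brca1-/-p53+/- tumors and 37.5 (MMTV-Hras) to 138 (MMTV-Wnt) in the other 6 models. It was above the floor on 10 of the 36 arrays of the 7 other models. The study linked 1 probe of miR-412 to C3TAg tumors through z-scores of normalized signal across models. It also linked miR-412 to basal-like tumors, and reported a modest association of its array signal with RT-PCR. The unscaled averages given here are an unlike measure and do not test those links.

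No list of another cell type had a member above the floor on 3 or more C3TAg arrays that was not also above it in normal gland. Of the fibroblast and smooth muscle list, 5 of 5 fell, against 29.9 percent of all miRNAs. Its summed signal ranged from 1281 to 5637 over C3TAg arrays and from 50772 to 113912 over normal arrays. miR-143 had 157, 127, 269, 168 and 134 in C3TAg, against 16058, 14748, 24057, 26429.6 and 35339 in normal gland, and was at least 29.5-fold lower (log2 fold -6.14, SE 0.58, adjusted p = 1.7e-12). miR-145, made from the same transcript, stayed above the floor on all C3TAg arrays, with 1347, 465.1, 2172, 811 and 1590.0 in C3TAg against 22487, 25667, 40830.5, 43630.0 and 52012 in normal gland (log2 fold -4.04, SE 0.53, adjusted p = 3.8e-09). miR-199a and miR-199b fell by less (-2.97 and -2.99) and turned above 0 with scaling to the brightest miRNAs. Of 5 leukocyte miRNAs, 3 fell (sums 970.5 to 3229.8 in C3TAg and 13094 to 20395 in normal gland). The myeloid miR-223 was above the floor on 4 C3TAg arrays (log2 fold -3.07, SE 0.47, adjusted p = 1.0e-07), the lymphoid miR-150 reached 1511 and 1550.4 on C3TAg replicates 1 and 3 but 125 to 328 on the others (log2 fold -2.45, SE 0.68, adjusted p = 0.0013), and miR-155 and miR-142-5p were above it on none.

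Skeletal muscle miRNAs varied among the normal glands. miR-1 lay between 103 and 273 on C3TAg arrays, against 8759, 367.1, 10680.3, 3809 and 15395 in normal gland (at least 6.1-fold lower, log2 fold -3.95, SE 1.22, adjusted p = 0.0035), with normal replicate 2 far below the others. miR-133b had 172, 493, 1341, 454 and 2777 in C3TAg, against 17861, 464.9, 18407, 4451 and 22338 in normal gland, with overlapping groups (log2 fold -2.41, SE 1.00, adjusted p = 0.028). Its call was lost without C3TAg replicate 1 (adjusted p = 0.1) or without normal gland replicate 1 (0.11), 3 (0.068) or 5 (0.069). miR-206, the third, was called lower with normal replicates 2 and 4 at 452 and 661 (log2 fold -2.15, SE 0.64, adjusted p = 0.0024). The part of muscle tissue in the normal samples in other folds was not tested. Of the fat list, miR-193 was at least 14.8-fold lower in C3TAg (log2 fold -5.08, SE 0.58, adjusted p = 1.1e-10) and miR-365 at least 7.89-fold (log2 fold -4.31, SE 0.48, adjusted p = 6.5e-11), while miR-378 did not pass. The only endothelial miRNA measured, miR-126-5p, was at the floor in both groups.

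Other families were mostly lower in C3TAg tumors too with the array median. Of the miR-23-27-24 clusters, 5 of 5 fell and all 5 were above the floor on 3 or more C3TAg arrays, from -4.43 for miR-23b to -2.52 for miR-27a. The fold of miR-27a turned to 0.79 with scaling to the brightest miRNAs, 0.34 with the 90th percentile after floor subtraction and 0.27 with quantile normalization, and that of miR-27b to 0.14 with scaling to the brightest miRNAs. miR-23a had 2998, 2488, 2203, 1060.3 and 3490.0 in C3TAg, against 23501, 28446, 40395, 28700.5 and 39442 in normal gland (log2 fold -2.86, SE 0.43, adjusted p = 1.0e-07), and its fold turned to 0.45 with scaling to the brightest miRNAs, 0.19 with the 90th percentile after floor subtraction and 0.12 with quantile normalization. The miR-15 family, which represses Bcl2 and cyclins, fell in 5 of 5 members, with miR-16 at 426, 444, 269.9, 149 and 436 in C3TAg against 7091, 11462, 13112, 10798 and 16605 in normal gland (log2 fold -4.23, SE 0.46, adjusted p = 6.2e-11). Of the miR-99-100-125 miRNAs 4 of 5 fell, and miR-125b, at 510.3, 196, 865, 410.1 and 2316 in C3TAg against 16907, 17709, 24174, 27566 and 50468 in normal gland (log2 fold -4.44, SE 0.59, adjusted p = 4.1e-09), was far higher on C3TAg replicate 5 than on the others. Of the Hox cluster miRNAs 4 of 4 fell, and none was above the floor on a C3TAg array, with at least 10.7-fold for miR-10b (log2 fold -4.43, SE 0.46, adjusted p = 2.0e-11) and 9.75-fold for miR-10a (log2 fold -4.32, SE 0.66, adjusted p = 1.1e-07). The background was 29.9 percent of all miRNAs lower, and all 100 of these calls lay among the 220 miRNAs above the floor on 3 or more normal arrays. Whether a family differed from other miRNAs of like signal was not tested.

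Among miRNAs often named in cancer, miR-21 was lower. It had 248, 249, 418, 139 and 336 in C3TAg, above the floor on 1 array, against 9664, 8912, 18294, 19306 and 28134 in normal gland (log2 fold -4.95, SE 0.74, adjusted p = 6.5e-08). The hypoxia miRNA miR-210 was above the floor on 4 C3TAg and 5 normal arrays and did not pass (log2 fold -0.54, SE 0.67, adjusted p = 0.5), and miR-155 did not pass (log2 fold 0.48, SE 0.52, adjusted p = 0.42). Of the miR-183 cluster, miR-182 fell to the floor (at least 3.96-fold lower, log2 fold -3.22, SE 0.62, adjusted p = 9.8e-06), and miR-96 and miR-183 did not pass. The embryonic stem cell clusters (12 of 12), the X-linked testis cluster (6 of 6), 5 of 6 miRNAs of liver, heart and pancreas and 4 of 9 neural miRNAs were called higher, against the 43.7 percent of all miRNAs so called, yet none of the first 2 lists was above the floor on more than 1 C3TAg array. Their medians of 3.36 and 3.03 shrank to 0.47 and 0.28 with floor subtraction alone.

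**Figure D5:**
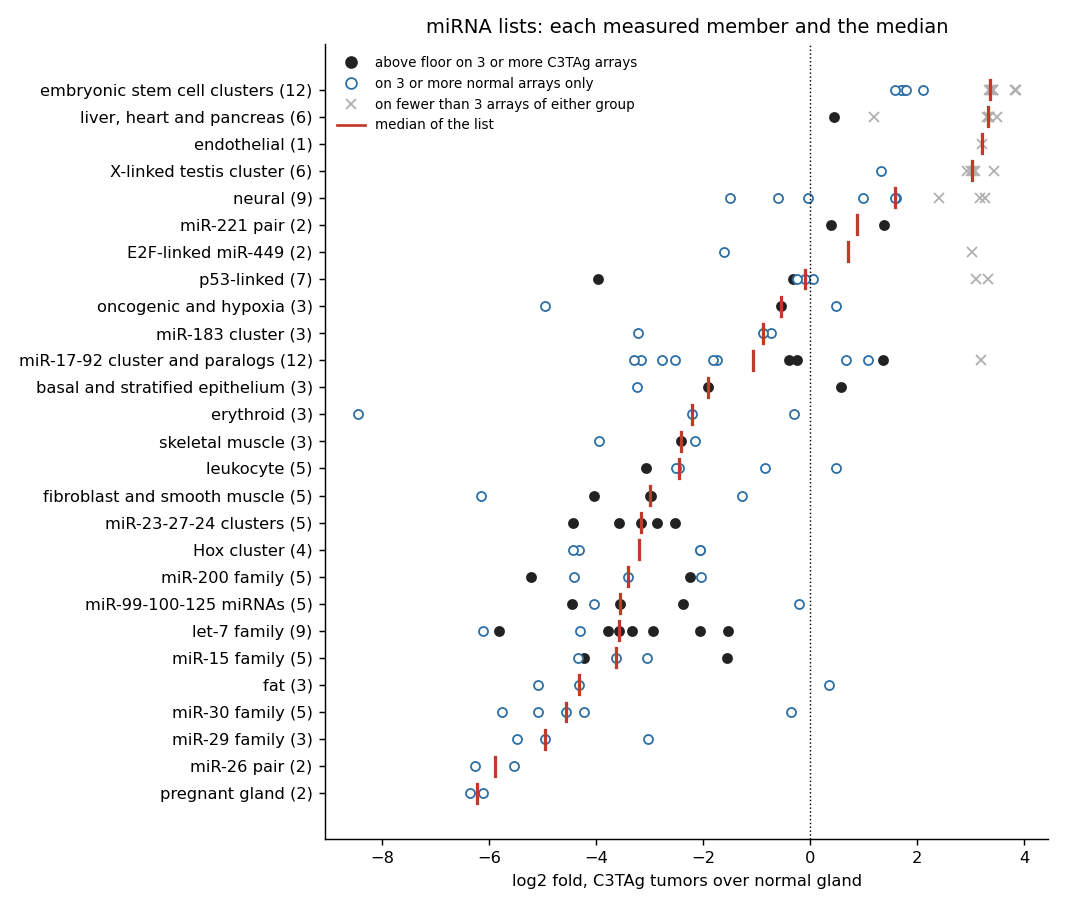
log2 fold, C3TAg tumors over normal gland with the array median, of each measured member of 27 miRNA lists (number of members in brackets) and the list median (red line); filled points were above the floor on 3 or more C3TAg arrays, open points on 3 or more normal arrays only, and crosses on fewer than 3 arrays of either group. The members with the highest folds are crosses, the medians of the secretory gland pair, the miR-26 pair and the miR-29 family are the lowest, and the lowest single member is miR-451.

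Some miRNAs stayed above the floor in both groups. Of the 22 miRNAs above the floor on all 10 arrays, 11 were lower, 2 higher (miR-222 and miR-92) and 9 did not pass. The 8 brightest of the C3TAg arrays by scaled mean were let-7b, let-7c, miR-762, miR-689, miR-221, let-7a, miR-720 and miR-25. miR-762 had 12642, 15059, 12896, 4958 and 18277 in C3TAg, against 27262, 42073, 43355, 29476 and 49575 in normal gland (log2 fold -0.74, SE 0.61, adjusted p = 0.28). miR-689 had 4772, 4133, 8770.1, 2168 and 5948 in C3TAg, against 23167, 17345, 16335, 7757 and 9796 in normal gland (log2 fold -0.63, SE 0.70, adjusted p = 0.43). Their unscaled signals were lower in C3TAg without overlap for miR-762 and with overlap for miR-689, and neither passed. miR-720 fell slightly (log2 fold -1.26, SE 0.52, adjusted p = 0.027), its fold turned to 2.05 with scaling to the brightest miRNAs, and its call was lost without C3TAg replicate 3 (adjusted p = 0.1) or without normal gland replicate 1 (0.087) or 4 (0.062). Of the 50 miRNAs above the floor on 3 or more arrays of both groups, 36 had unscaled signals in C3TAg below every normal array, against 31.7 percent of all 334 miRNAs, and none had all above. The fold of 32 of the 50 turned sign under at least 1 of the 7 settings.

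Signal was related to base content differently in the 2 groups: miRNAs richer in G and C tended to be brighter on C3TAg arrays and dimmer on normal arrays. Over the 192 miRNAs with a sequence, Spearman's rho between log2 signal and percent of G and C was 0.14, 0.16, 0.46, 0.25 and 0.18 on C3TAg arrays 1 to 5, and -0.18 to -0.11 on the normal arrays (means 0.24 ± 0.13 and -0.14 ± 0.03, SD, n = 5 each; exact permutation test over arrays, two-sided, p = 0.00794, the smallest possible). Without C3TAg replicate 3, which had the highest value, the means were 0.18 ± 0.05 and -0.14 ± 0.03 (exact permutation test, p = 0.0159, the smallest that 4 against 5 allows). Each correlation is across miRNAs that share an array and are not independent, and is given as a description. Among the 131 matched miRNAs above the floor on all 5 normal arrays, the log2 fold correlated with GC content at a rho of 0.44 (0.42 without C3TAg replicate 3). Of those with at most 35 percent GC, 10 of 11 were above the floor on no C3TAg array (median log2 fold -4.29), and of those over 55 percent, 8 of 24 (-0.27). The miRNAs of at most 35 percent GC were also the brighter ones in normal gland (median signal 5921, against 674 for those over 55 percent). let-7f, miR-98, miR-365 and miR-26b, all at the C3TAg floor, have 31.8 to 33.3 percent GC, and let-7b has 45.5, miR-222 52.2, miR-92 and miR-683 57.1 and miR-346 65.2 percent. In p53-/- tumors rho was 0.06 to 0.24, and of the other tumor arrays 2 were above 0, at 0.003 (MMTV-C-Myc) and 0.22 (Brca1-/-p53+/-). The part of base content, array background and RNA quality in the folds was not tested.

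Against the mean of the other 7 tumor models, C3TAg tumors had 147 miRNAs higher (44 percent of all tested) and 99 lower (29.6), with 29 lower and 6 higher under all 7 settings. This comparison shares the C3TAg arrays with that against normal gland and mixes 3 strains. None of the 6 was above the floor on 3 or more C3TAg arrays. The 5 lower miRNAs with the largest folds were miR-451, let-7f, miR-29b, miR-26a and let-7g. miR-451 averaged 191 in C3TAg, against 1835 in p53-/- and 23992 (MMTV-Wnt) to 102114 (MMTV-H2N) in the other 6 models, and was at least 32.5-fold lower (log2 fold -6.06, SE 0.45, adjusted p = 1.2e-15). let-7f was at least 33.5-fold lower (log2 fold -5.67, SE 0.35, adjusted p = 5.4e-18), miR-29b at least 17.8-fold and miR-26a at least 11.3-fold, and let-7g had a log2 fold of -4.67. miR-690 and miR-709, of no role given here, were also lower than in the other models under all 7 settings (-4.58 and -4.23); both are named here after their values were seen.

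The 5 higher miRNAs with the largest folds among those above the floor on 3 or more C3TAg arrays were miR-683, miR-689, miR-346, miR-222 and miR-672. None was called under all 7 settings. Averages given for them are of unscaled signal, whereas the folds use scaled values, and the 2 can order the models differently. miR-683 averaged 314 in C3TAg, against 50.3 (MMTV-C-Myc) to 809 (MMTV-Wnt) in the other models, and was above the floor on 14 of their 36 arrays (log2 fold 2.10, SE 0.35, adjusted p = 8.1e-07). miR-346 averaged 573 in C3TAg, against 88.7 (MMTV-C-Myc) to 2972 (MMTV-Wnt), so its unscaled signal was higher in MMTV-Wnt and MMTV-Hras tumors (1407) than in C3TAg (log2 fold 1.62, adjusted p = 0.0054). miR-222 averaged 2362 in C3TAg, against 4438 in MMTV-Wnt, 3582 in p53-/- and 2755 in MMTV-Hras tumors, all higher unscaled. It averaged 839 (MMTV-PymT) to 1128 (Brca1-/-p53+/-) in the other 4 models (log2 fold 1.49, adjusted p = 0.001). In scaled log2 signal only p53-/- was higher, at 4.98 against 3.83 in C3TAg, with 2.60 in MMTV-Hras and 2.10 in MMTV-Wnt tumors. miR-689 averaged 4674 in C3TAg and 10688 in p53-/-, against 619 (MMTV-H2N) to 7850 (MMTV-C-Myc) in the other 6 models (log2 fold 1.86, adjusted p = 0.0018). miR-672 had a log2 fold of 1.31 that turned sign with the scaling.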

How the data were processed

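Total RNA of each sample was labelled with Hy3 and hybridised to a custom Agilent array with 4 spots for each of 334 mouse miRNAs. The authors deposited the processed signal intensity of 1336 spots per array, which was used here, and a table of log2 values after median scaling, which was used as an alternative; the 2 agreed up to a constant per array. One further column (1) of values, with no matching label, was left out. After log2 transformation each array was centred on its median over all spots, and a mean was taken over the 4 spots per miRNA. Signals and their group averages are given unscaled, the averages as geometric means over arrays, whereas folds use the centred values. Groups followed the labels. limma 3.58.1 in R 4.3.3 fitted 1 mean per group over all 46 arrays; tests were two-sided with Benjamini-Hochberg adjustment over 334 miRNAs at 0.05. The number of arrays limits the precision.

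The named miRNAs were the 12 with the largest folds in each direction that passed and were above the floor on 3 or more of 5 arrays of the higher group (4 were higher), up to 4 members of each of 27 lists, the 8 brightest in C3TAg, miR-412, and 5 in each direction against the other 7 models. Further members of a family are named where the family is described. The groups, lists and named miRNAs were chosen with earlier results of these data known. The 7 settings were the array median, the 75th percentile, the brightest miRNAs, quantile normalization, no scaling, and the floor subtracted (offset 50) with no scaling or with the 90th percentile. Leave-one-out fits, array weights, the 10 arrays alone, a common floor, 2 and 5 times the floor, a replicate block and the methods' t-test were also run. The script was tested on simulated data.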

Additional observations from a re-analysis of the deposited data

Results flagged for a closer look

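Of 204 groups of 5 arrays tested for 102 named miRNAs, 18 held an array whose gap to the nearest other array exceeded Dixon's limit as a share of the group's range, and chance flags about 1 in 20. The scaled log2 signal of normal gland replicate 1 stood alone for let-7a (0.753), let-7f (0.756), let-7g (0.746), miR-26a (0.808), miR-98 (0.837) and miR-219 (0.753). It was above the other 4 normal arrays in each of these, by the most for miR-219, at -0.43 against -3.14 to -2.47. C3TAg replicate 3 stood alone for miR-10a (0.739), miR-291a-5p (0.905) and miR-291b-5p (0.840), and for the floor of the array (0.738), which was 241 against 92.7 to 132 on the other C3TAg arrays. C3TAg replicate 5 stood alone for miR-125b (0.718), miR-15a (0.724), miR-17-5p (0.784), miR-449 (0.829) and miR-96 (0.896), each above the other C3TAg arrays, with miR-125b at 4.21 against 0.56 to 1.59. Replicate 1 of C3TAg stood alone for miR-20a (0.735) and miR-805 (0.892), replicate 2 for miR-205 (0.726, at 3.55 against 2.44 to 2.74) and replicate 4 for miR-30b (0.797). Apart from miR-125b and miR-205, the C3TAg miRNAs named here were above 3 times the floor on at most 1 C3TAg array. None of these patterns was tested for a cause.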

How the results depend on the processing

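The array median and the deposited log2 table gave the same counts of calls (43.7 percent of all tested higher, 100 miRNAs lower). The 75th percentile gave 231 higher (20 above the floor in C3TAg) and 52 lower, and 230 higher and 51 lower against the other models. The brightest miRNAs as the reference gave 254 (26) and 32, and 266 and 29 against the other models. Floor subtraction with the 90th percentile gave 234 (24) and 46, and 233 and 47. Floor subtraction alone gave 19 (2) and 163 (162 above the floor in normal gland), and 6 and 179. No scaling gave 100 higher (2) and 125 lower, and 58 higher against the other models. Quantile normalization gave 120 higher (17) and 83 lower. Calls higher were 59.3 percent of all calls with the array median, 81.6 with the 75th percentile, 88.8 with the brightest miRNAs, 83.6 and 10.4 with the floor subtracted with and without the 90th percentile, 44.4 with no scaling, 25 with only miRNAs above the floor and 3.37 with a common floor. The common floor left 3 higher (2 above the floor), 86 lower, and only miRNAs above the floor gave 33 higher. These counts follow from what each array is set to and from the miRNAs kept.

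Leave-one-out fits gave 42.5 to 44 percent of all tested higher, 29 to 29.9 percent lower, 2 to 4 miRNAs higher and above the floor in C3TAg and 97 to 100 lower and above the floor in normal gland, and against the other models 41.6 to 44.3 percent higher and 27.8 to 29.9 percent lower. The lowest count of 2 came without C3TAg replicate 5. Replicate numbers did not pair the samples: deviations of arrays of the same number correlated at -0.17 to 0.18, and those of other numbers at -0.11 to 0.19. With the replicate block 44.3 percent were higher (4 above the floor) and 30.2 percent lower. The methods' t-test gave 149 higher and 107 lower after Benjamini-Hochberg adjustment.

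Directions turned for some called miRNAs. With the 75th percentile the log2 folds became 0.63 for let-7b, 0.10 for let-7c, 0.11 for miR-196a and miR-196b, 0.13 for miR-141, 0.017 for miR-206, 0.56 for miR-449 and 0.90 for miR-720. With the brightest miRNAs they became 1.77 for let-7b, 1.25 for let-7c, miR-196a and miR-196b, 0.38 for let-7e, 1.27 for miR-141, 0.79 for miR-27a, 0.55 for miR-106b, 0.94 for miR-125a, 0.90 for miR-133b, 0.81 for miR-146, 0.86 for miR-150, 0.26 for miR-15b, 0.14 for miR-17-5p and miR-27b, 0.090 for miR-182, 0.34 for miR-199a, 0.32 for miR-199b, 0.073 for miR-203, 1.16 for miR-206, 0.025 for miR-20a, 0.24 for miR-223, 0.45 for miR-23a, 0.28 for miR-29c, 1.06 for miR-429, 1.70 for miR-449, 1.10 for miR-486 and 2.05 for miR-720. With the 90th percentile after floor subtraction they became 1.57 for let-7b, 1.05 for let-7c, 0.55 for miR-125a, 0.39 for miR-133b, 0.23 for miR-150, 0.17 for miR-196a, 0.24 for miR-196b, 0.15 for miR-206, 0.19 for miR-23a, 0.34 for miR-27a, 0.42 for miR-429, 0.60 for miR-449, 0.33 for miR-486 and 1.74 for miR-720. With quantile normalization they became 0.63 for let-7b, 0.51 for miR-125a, 0.12 for miR-23a, 0.27 for miR-27a and 1.66 for miR-720. The cause was not tested. With 9.28 to 25.4 percent of the miRNAs above the floor on a C3TAg array, signal over background limited what could be measured in C3TAg tumors. Of the other named miRNAs, miR-9 passed without normal gland replicate 3 (log2 fold 1.86, adjusted p = 0.032).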
